A study of Mus musculus with 26 samples.

Results

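The genes described here are the nuclear genes of the mitochondrial respiratory chain and ATP synthase. They were taken from the platform annotation as every probe set with a single gene symbol that begins with Ndufa, Ndufb, Ndufc, Ndufs, Ndufv, Uqcr, Cox4 to Cox8 or Atp5, or that is Sdha, Sdhb, Sdhc, Sdhd, Cyc1 or Cycs, with the probe set of the highest mean kept for each gene. This gave 91 genes of 19938 with a single symbol, measured by 118 of 35556 probe sets. They comprise 36 genes of complex I, 4 of complex II, 9 of complex III, 17 of complex IV, 17 of ATP synthase and cytochrome c (Cycs), and 7 Ndufaf genes, which the prefix takes in although they encode complex I assembly factors and not subunits. Ndufa4 is counted with complex I by its name, although its product is now placed in complex IV.

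The respiratory chain passes electrons from NADH (complex I) and succinate (complex II) through complex III and cytochrome c to oxygen at complex IV, and ATP synthase uses the proton gradient so formed. Most subunits are nuclear-encoded and a few come from mitochondrial DNA, and the 13 protein genes of mitochondrial DNA were not measured by a probe set with a single symbol. Transcription of the nuclear genes is known to be driven by NRF1, by the ETS factor GABP (also called NRF2) and by YY1, with PGC-1 coactivators setting the overall level. Several complex IV subunits exist as isoforms, with a general form and a form typical of heart and skeletal muscle, testis or lung. Astrocytes are known for strong glycolysis next to mitochondrial respiration.

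Neurospheres (NSPs) are free-floating clusters of neural progenitor cells, here grown from the ventricular zone of C57BL/6J mouse embryos at embryonic day 14. They were grown in medium with epidermal growth factor (EGF). They were then plated on poly-L-ornithine in serum-containing medium, in which they differentiate into astrocytes. TNF at 50 ng/mL was present from the start or was left out, and RNA was taken after 6, 24, 48 and 72 h and, without TNF, at 0 h. TNF-treated cells were measured on 3 arrays at 6, 24 and 48 h and on 2 arrays at 72 h, and untreated cells on 3 arrays at each of the 5 times, which makes 26 arrays of 9 groups. All groups are primary cultures of 1 mouse strain, the series describes the replicates as biological, and the labels do not say how many embryos went into a culture.

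Values are log2 signals of Affymetrix mouse gene arrays, on which a difference of 1 equals a fold change of 2. A gene is called changed where its q-value, the false discovery rate at which it would be accepted, is under 0.05 in limma over all 35556 probe sets, and the spread given with a difference is its standard error (SE) from that fit. The array values are bulk measurements, in which fewer cells of a type and less RNA per cell cannot be told apart. The treatment and the differentiation were visible in the arrays. Nfkbia, an inhibitor of NF-κB and itself an NF-κB target, was higher with TNF by 2.11 ± 0.14 at 6 h and by 2.62 ± 0.16 at 72 h on the log2 scale, and Gfap, the intermediate filament of astrocytes, was 4.54 ± 0.26 higher in untreated cells at 72 h than at 0 h. Of the 10 astrocyte markers, 4 rose and 1 fell over that interval, and 5 of 8 progenitor markers rose, beside 14.6% of all genes called higher and 11.2% called lower. None of 8 microglia markers was called over the same interval, and their mean signal lay between 6.57 and 7.16. Levels of different probe sets cannot be compared on these arrays, so this signal does not give the share of microglia.

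Some arrays stood apart before any comparison was made. The 19 cell division genes averaged 8.12, 11.64 and 10.14 in the arrays numbered 1, 2 and 3 at 0 h, 8.0, 11.26 and 9.75 in those of TNF at 6 h, and 7.99, 11.29 and 9.85 in the untreated ones at 6 h. From 24 h on all arrays lay between 7.85 and 8.51. The respiratory chain genes were ordered in a similar way at 0 h: their mean deviation from their averages over all 26 arrays was -0.16, 0.26 and 0.03 in arrays 1, 2 and 3. With TNF at 6 h the deviation was -0.13, 0.27 and -0.13, and without TNF at 6 h it was -0.20, 0.12 and -0.11. Array 2 was thus the highest of its group at both times for the cell division genes and for the respiratory chain genes, and the part of cell division in the level of the respiratory chain genes was not tested. Comparisons with 0 h are therefore given also without single arrays and without all arrays numbered 2.

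**Figure D1:**
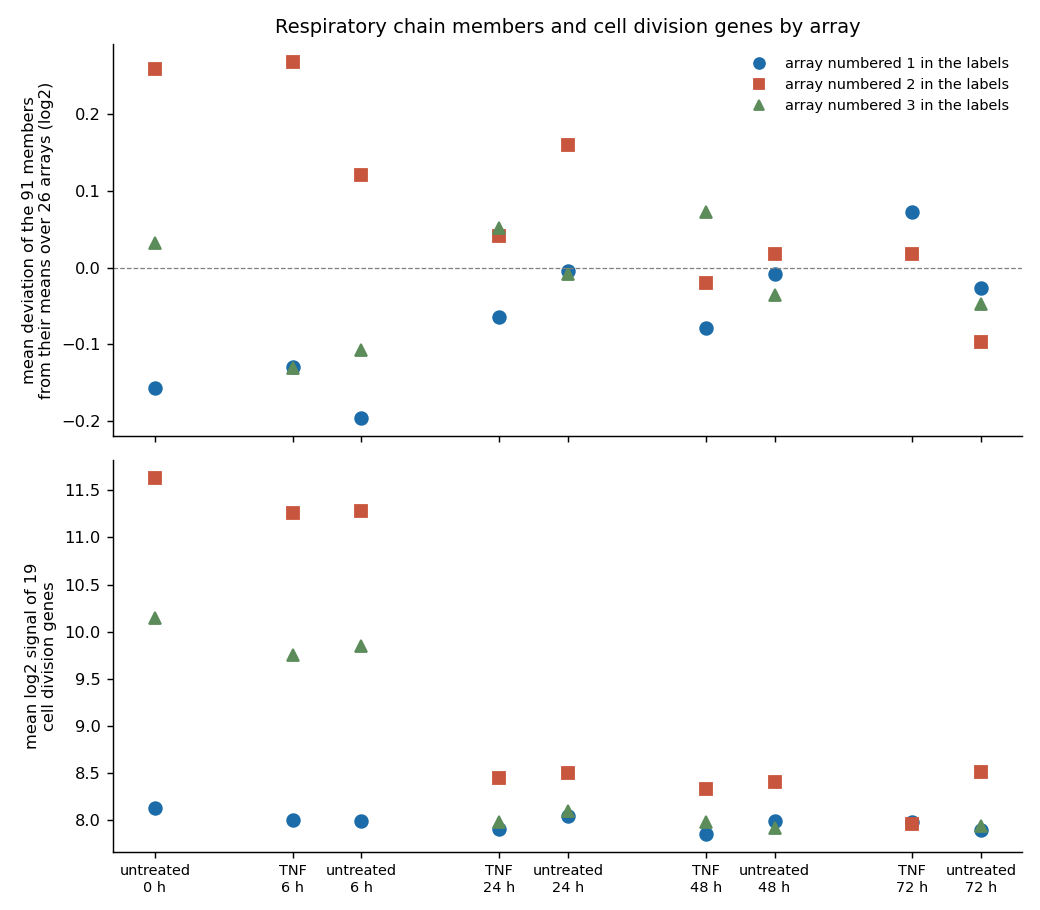
The upper panel plots, for each of the 26 arrays, the mean deviation of the 91 genes from their own averages over all arrays (log2), and the lower panel the mean log2 signal of 19 cell division genes, with groups along the axis by time and the array's number in the labels as its symbol. At 0 and 6 h the arrays numbered 2 sit highest of their group in both panels, at 0.12 to 0.27 in the upper panel. At 72 h, in the upper panel, both TNF arrays (0.07 and 0.02) lie above the 3 untreated arrays (-0.03, -0.10 and -0.05).

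Promoter sequences were found for 74 of the 91 genes in the RefSeq table of build GRCm38.p6, as the 250 bases before to 50 bases after the annotated start. On either strand, the NRF1 motif (GCGCA, any base, GCGC) was present in 17 of them (23%), against 4.78% of all 27025 promoters of the same length, and the ETS motif CCGGAAG in 17 (23%), against 9.12%. The YY1 motif AAGATGGCG was found in 6 (8.11%), against 1.49%, and TATAAA in 8 (10.8%), against 14.2%. No matches of different motifs overlapped in these promoters. Among the 13 promoters of genes whose level changed in untreated cells (described below), 3 held the NRF1 motif, 1 the ETS motif and 1 TATAAA. Those 5 promoters are shown with the motif in capitals and all other bases in lower case, each read 5′ to 3′ on the strand of its gene, together with that of Cox7a2l, which was called at all 4 times and held none of the 4 motifs. A match describes the letters in this window only.
Ndufa11, chr17:56717512-56717811, plus strand: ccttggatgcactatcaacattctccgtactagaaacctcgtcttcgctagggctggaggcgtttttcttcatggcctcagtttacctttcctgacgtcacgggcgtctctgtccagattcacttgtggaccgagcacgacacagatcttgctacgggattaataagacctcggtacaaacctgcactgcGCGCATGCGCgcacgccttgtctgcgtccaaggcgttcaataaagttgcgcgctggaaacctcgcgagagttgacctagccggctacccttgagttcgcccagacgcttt
Ndufa6, chr15:82354242-82354541, minus strand: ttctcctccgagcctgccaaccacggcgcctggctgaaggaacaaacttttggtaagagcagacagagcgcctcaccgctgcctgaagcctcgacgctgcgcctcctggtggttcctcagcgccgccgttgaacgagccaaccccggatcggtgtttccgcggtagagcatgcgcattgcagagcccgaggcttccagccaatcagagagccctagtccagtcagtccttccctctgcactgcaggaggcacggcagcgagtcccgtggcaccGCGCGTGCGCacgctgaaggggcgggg
Atp5g2, chr15:102670998-102671297, minus strand: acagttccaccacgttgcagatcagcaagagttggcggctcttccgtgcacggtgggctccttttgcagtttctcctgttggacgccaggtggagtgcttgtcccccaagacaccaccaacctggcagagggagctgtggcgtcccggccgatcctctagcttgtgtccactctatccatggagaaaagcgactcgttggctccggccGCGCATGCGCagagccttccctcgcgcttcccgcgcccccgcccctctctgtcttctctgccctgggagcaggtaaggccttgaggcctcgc
Cox8a, chr19:7217567-7217866, minus strand: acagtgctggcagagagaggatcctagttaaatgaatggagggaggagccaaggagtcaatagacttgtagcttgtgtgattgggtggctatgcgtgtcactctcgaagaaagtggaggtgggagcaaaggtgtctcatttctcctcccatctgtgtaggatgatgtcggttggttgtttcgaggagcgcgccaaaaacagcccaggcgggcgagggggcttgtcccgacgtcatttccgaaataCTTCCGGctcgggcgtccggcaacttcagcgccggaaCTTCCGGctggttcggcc
Cox8b, chr7:140900397-140900696, minus strand: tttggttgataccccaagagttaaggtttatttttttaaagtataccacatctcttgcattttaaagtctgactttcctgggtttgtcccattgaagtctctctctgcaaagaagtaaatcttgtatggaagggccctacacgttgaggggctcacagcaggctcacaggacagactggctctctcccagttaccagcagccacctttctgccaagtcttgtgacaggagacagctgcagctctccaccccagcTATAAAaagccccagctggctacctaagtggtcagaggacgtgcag
Cox7a2l, chr17:83514284-83514583, minus strand: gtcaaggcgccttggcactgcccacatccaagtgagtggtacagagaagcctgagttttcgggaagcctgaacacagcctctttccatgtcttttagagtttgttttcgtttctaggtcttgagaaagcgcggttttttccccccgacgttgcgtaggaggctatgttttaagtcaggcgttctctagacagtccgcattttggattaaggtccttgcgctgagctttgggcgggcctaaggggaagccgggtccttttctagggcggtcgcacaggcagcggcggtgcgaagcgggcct

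The first question was whether TNF changed the expression of these genes during differentiation. No gene met the criterion at any single time. Of the 91 genes, 0 were called at 6 h, where 0.517% of all genes were called, 0 at 24 h (1.26% of all genes), 0 at 48 h (1.49%) and 0 at 72 h (1.53%). The lowest q-values among them were 0.894, 1.0, 0.772 and 0.359 in order of time, and an unadjusted p under 0.05 was reached by 0, 0, 0 and 3 genes. Benjamini-Hochberg adjustment in place of q-values gave 0 calls as well. With arrays weighted by their quality, 1 gene was called lower at 6 h, beside 4.02% of all genes, and 7 were called higher at 72 h, beside 15.8% of all genes.

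The number of arrays limits the precision, and the intervals show how far. The largest TNF effect of any of them, regardless of sign, was 0.26 (Ndufaf4), 0.20 (Ndufa12), 0.53 (Cox8b) and 0.45 (Atp5e) on the log2 scale in order of time. The 95% confidence interval of the effect lay within 1 log2 unit of 0 for 90 of the 91 genes at 48 h and for all 91 at the other times, and, in order of time, within 0.5 for 75, 72, 79 and 55 of them. In simulated arrays of the 48 h comparison, 0% of changes of 0.2, 32% of changes of 0.5 and 76% of changes of 1 log2 unit were called. There 50 random probe sets were changed by each size, with noise drawn independently for each array, and smaller shifts were mostly out of reach in that setting. In the real data at 48 h, same-numbered TNF and untreated arrays deviated together over these genes, with correlations of 0.28 to 0.78. Because q-values also depend on the share of changed genes, this recovery does not describe the real comparison. The gene whose interval went past 1 at 48 h was Cox8b, the muscle-type isoform of a small complex IV subunit. Its signals were 7.51, 7.34 and 7.88 in TNF-treated cells, against 7.88, 8.26 and 8.17 in untreated cells. The groups meet at 7.88, and the effect was -0.53 ± 0.36 (SE, q = 0.801, 95% interval -1.29 to 0.23).

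The 91 genes had a median effect of 0.06, -0.04, 0.00 and 0.10 from the first to the last time, beside -0.03, 0.02, -0.04 and -0.01 for all genes. At 6 h 67 genes lay above 0, at 24 h 28, at 48 h 47 and at 72 h 71. Leaving out 1 array at a time moved the median between 0.06 and 0.13 at 72 h, with no change of sign. At 6 h it was -0.08 without TNF array 2 and -0.02 without untreated array 1, at 24 h it was 0.01 without untreated array 2, and at 48 h it was -0.04 without TNF array 3. By complex, at 24 h all 9 genes of complex III lay below 0, with a median of -0.07, and at 72 h 33 of the 36 genes of complex I lay above 0, with a median of 0.14. None of these genes was called, and the genes share arrays, so they are not independent observations.

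**Figure D2:**
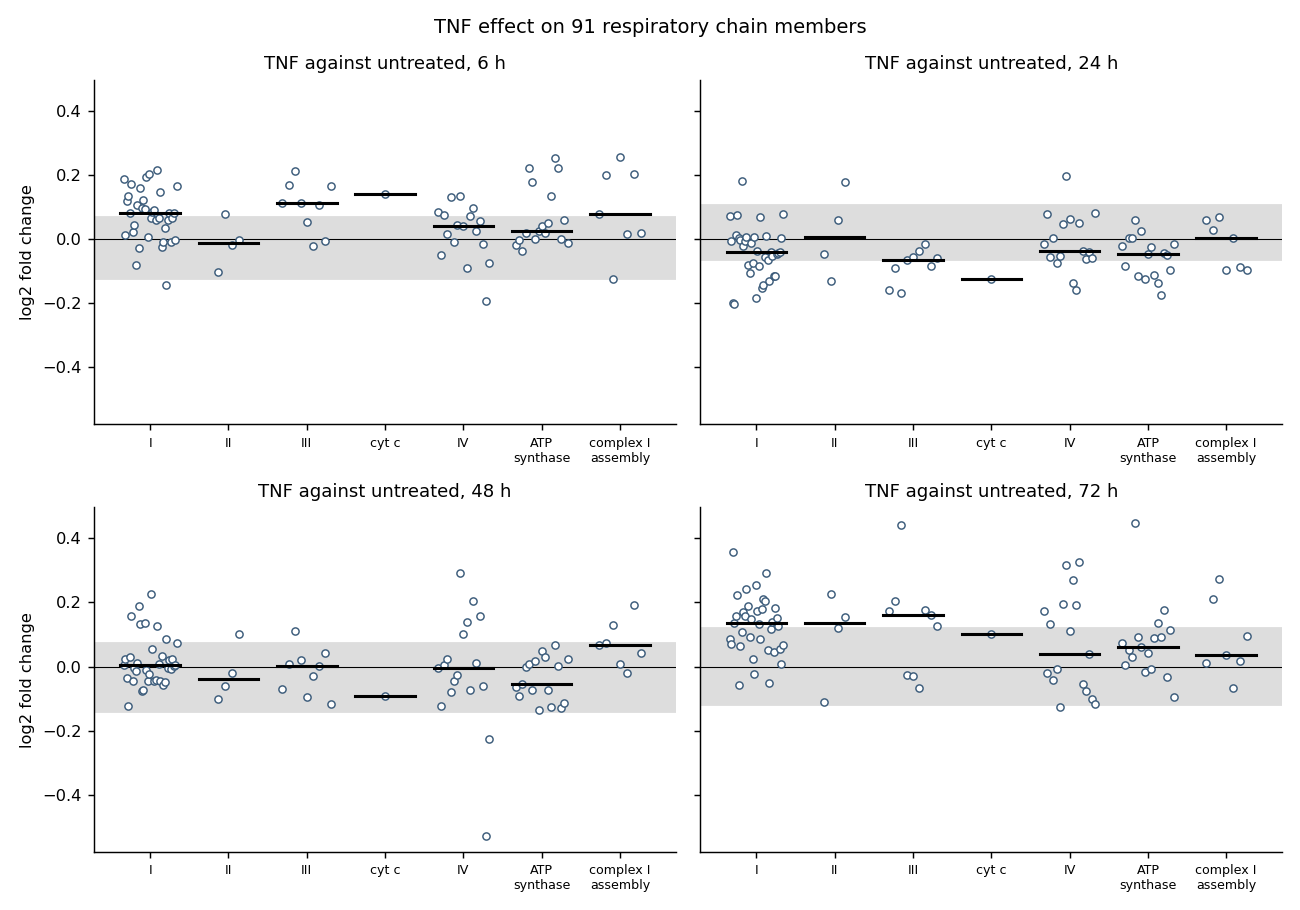
Each point is the log2 fold change of 1 of the 91 genes, TNF-treated over untreated cells, at 6, 24, 48 and 72 h, sorted by complex; black bars are medians and the grey band spans the interquartile range of all 19938 genes. No gene was called at any time, and at 72 h most points lie above 0, with Atp5e (0.45) and Uqcr11 (0.44) highest.

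At 72 h, 40 of the 91 genes had no overlap between TNF and untreated arrays, 35 of them higher and 5 lower with TNF. The same held for 44.1% of all genes, 22% higher and 22.1% lower, so the total was near the background, while the split leaned to higher values. At this time 2 arrays stood against 3. At 6, 24 and 48 h the numbers were 0, 6 and 2 genes, against 9.5%, 16.5% and 14.1% of all genes. The 91 genes are short (median 7279 bp, against 17737 bp for all genes), and the difference between long and short genes in log2 signal was 1.53 and 1.51 in TNF arrays at 72 h, against 1.60, 1.59 and 1.61 in the untreated ones. At 6, 24 and 48 h this difference overlapped between TNF and untreated arrays: it ran from 1.46 to 1.54 against 1.44 to 1.56, from 1.45 to 1.60 against 1.57 to 1.65, and from 1.51 to 1.63 against 1.49 to 1.65. With the trend on gene length removed from each array, the median at 72 h was 0.08 and 69 genes lay above 0.

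Of the 91 genes, 3 had an unadjusted p under 0.05 at 72 h, all higher with TNF and none called. Ndufaf3, an assembly factor of complex I, had 9.93 and 9.85 in TNF-treated cells, against 9.66, 9.63 and 9.56 in untreated cells, a difference of 0.27 ± 0.11 (q = 0.359). Cox7a2l, a protein related to a complex IV subunit, had 9.57 and 9.43 with TNF, against 9.10, 9.39 and 9.04 without, a difference of 0.32 ± 0.14 (q = 0.401). Ndufa11, an accessory subunit in the membrane arm of complex I, had 12.05 and 11.96 with TNF, against 11.56, 11.63 and 11.76 without, a difference of 0.36 ± 0.15 (q = 0.404). At 24 h Ndufa11 went the other way, with -0.20 ± 0.14 and no overlap. Ndufaf3 had -0.13 at 6 h, while Cox7a2l lay above 0 at all 4 times. In each of the 3 genes the groups did not overlap at 72 h, yet none stood out among all genes tested. The largest differences at this time belonged to Atp5e, the epsilon subunit in the stalk of ATP synthase, with 10.06 and 9.97 against 9.75, 9.38 and 9.58 (0.45 ± 0.25, q = 0.623), and to Uqcr11, a small subunit of complex III, with 11.60 and 11.35 against 11.04, 10.97 and 11.07 (0.44 ± 0.25, q = 0.625).

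Averaging the effect over the 4 times gave the smallest errors among the comparisons of the fit without a block, with a median SE of 0.074 for the 91 genes. In that fit 0 of these genes were called, against 9.72% of all genes, and 5 had an unadjusted p under 0.05, all higher. The median was 0.03, beside -0.02 for all genes. With the array number as a block, Cox6b2 (q = 0.0123) and Cox7a2l (q = 0.0269) were called, with the share of all genes given in the closing section. The values that follow are from the fit without a block. Cox6b2, known as the testis form of a complex IV subunit, had the largest mean effect, 0.23 ± 0.09 (q = 0.0876, 95% interval 0.05 to 0.42), followed in q by Cox7a2l with 0.17 ± 0.06 (q = 0.0916). In Cox6b2 the TNF arrays read 7.22, 7.98 and 7.34 at 6 h, 7.30, 7.50 and 7.39 at 24 h, then 7.39, 7.83 and 7.59 at 48 h, and lastly 7.43 and 7.60 at 72 h. The untreated arrays of the same times read 7.19, 7.56 and 7.39, then 7.16, 7.29 and 7.17, then 7.42, 7.46 and 7.05, and at 72 h 7.07, 7.46 and 7.06. The TNF mean was the higher one at each of the 4 times, with full separation only at 24 h. Leaving out single arrays gave 0 to 2 calls among the 91 genes: 1 without TNF array 1 of 6 h, 1 without TNF array 3 of 6 h and 2 without TNF array 1 of 48 h.

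The mean TNF effect was small in other genes of each complex. For the catalytic beta subunit of ATP synthase, Atp5b, it was -0.04 (95% interval -0.13 to 0.05), for the flavoprotein subunit of complex II, Sdha, -0.09 (-0.23 to 0.05), and for the complex III core protein Uqcrc2 -0.04 (-0.15 to 0.07). Ndufc2 of complex I had -0.00 (-0.12 to 0.12), cytochrome c 0.01 (-0.18 to 0.19), and the complex IV subunit Cox6c 0.08 (q = 0.151), with an interval of 0.01 to 0.15 that leaves out 0. Atp5d, Atp5e, Ndufaf1, Ndufaf2, Ndufa1, Ndufa13, Ndufa2, Ndufa7, Ndufv3, Cox6b2, Cox6c and Cox7a2l lay above 0 at all 4 times, and Ndufs1, Sdha, Uqcrc2, Cox6a2 and Cox8b below 0 at all 4. Some of these values were very close to 0, such as 0.0019 at 24 h and 0.0004 at 48 h for Atp5d. No share of all genes stands beside these lists, so they describe signs only. The effects at 24, 48 and 72 h were also set against that at 6 h. Of the 91 genes 0 differed in each case, against 0.0251%, 0.145% and 0.191% of all genes, and the 3 differences share the arrays of 6 h.

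The second question was how these genes changed as untreated cells differentiated. Comparisons with 0 h also take in the change from EGF to serum medium and the attachment of the cells. These cannot be told apart from differentiation in this design. Against 0 h, 0 of the 91 genes were higher and 3 lower at 6 h, 4 higher and 4 lower at 24 h, 3 higher and 6 lower at 48 h, and 2 higher and 7 lower at 72 h. The shares of all genes called were, from the first to the last time, 5.5%, 11%, 11.3% and 14.6% for higher and 4.66%, 7.87%, 7.47% and 11.2% for lower levels. Called in either direction were 3, 8, 9 and 9 of the 91 genes, beside 10.2%, 18.8%, 18.8% and 25.8% of all genes. At 1 or more of the times 14 of the 91 genes were called, 5 higher and 9 lower, and 77 were not, while 31.8% of all genes were called at some time, 17.7% higher and 14.7% lower. The 4 comparisons share the 3 arrays of 0 h.

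Which arrays enter mattered for these counts. At 6 h the 3 calls became 6 without array 2 of 0 h. At 24 h the 8 calls became 4 without array 1 of 0 h and 5, 3 and 5 without arrays 1, 2 and 3 of 24 h. At 48 h the 9 calls became 4 and 3 without arrays 2 and 3 of 48 h, and at 72 h the 9 calls became 15 and 14 without arrays 1 and 3 of 0 h. Without all arrays numbered 2 the counts were 6, 3, 5 and 8. Over all probe sets, arrays of the same number deviated together at 6, 48 and 72 h. Over the respiratory chain genes alone, the correlations at 72 h were only 0.04, -0.02 and 0.11 for arrays 1, 2 and 3. With the array number as a block the counts were 5 (all lower) at 6 h and 22 (3 higher, 19 lower) at 72 h. The shares of all genes called with the block at these times were 16.9% and 38.7%. At 72 h a filter on dim probe sets gave 17 calls and cyclic loess 16, while a fit on the 6 compared arrays alone gave 3. Where no share of all genes stands beside a count in this paragraph, the count shows only how far the number moved.

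Over the 4 times the 91 genes had a median change of -0.09, -0.00, -0.06 and -0.13, beside -0.04, -0.08, -0.05 and -0.08 for all genes. At 72 h 64 of the 91 genes lay below 0. The median at 72 h rested on single arrays of 0 h: it was -0.24 without array 1 and -0.00 without array 2, and 0.02 without all arrays numbered 2. Without array 2 of 0 h the medians at 6, 24 and 48 h were also above 0, at 0.01, 0.12 and 0.05. Over the same interval 7 of 19 cell division genes fell, with a median of -1.91, beside 11.2% of all genes called lower. The level of the respiratory chain genes at 0 h was highest in the array with the highest cell division signal. The difference between long and short genes was 1.60, 1.59 and 1.61 at 72 h, against 1.33, 1.45 and 1.49 at 0 h, and with the gene length trend removed the median change was -0.07.

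**Figure D3:**
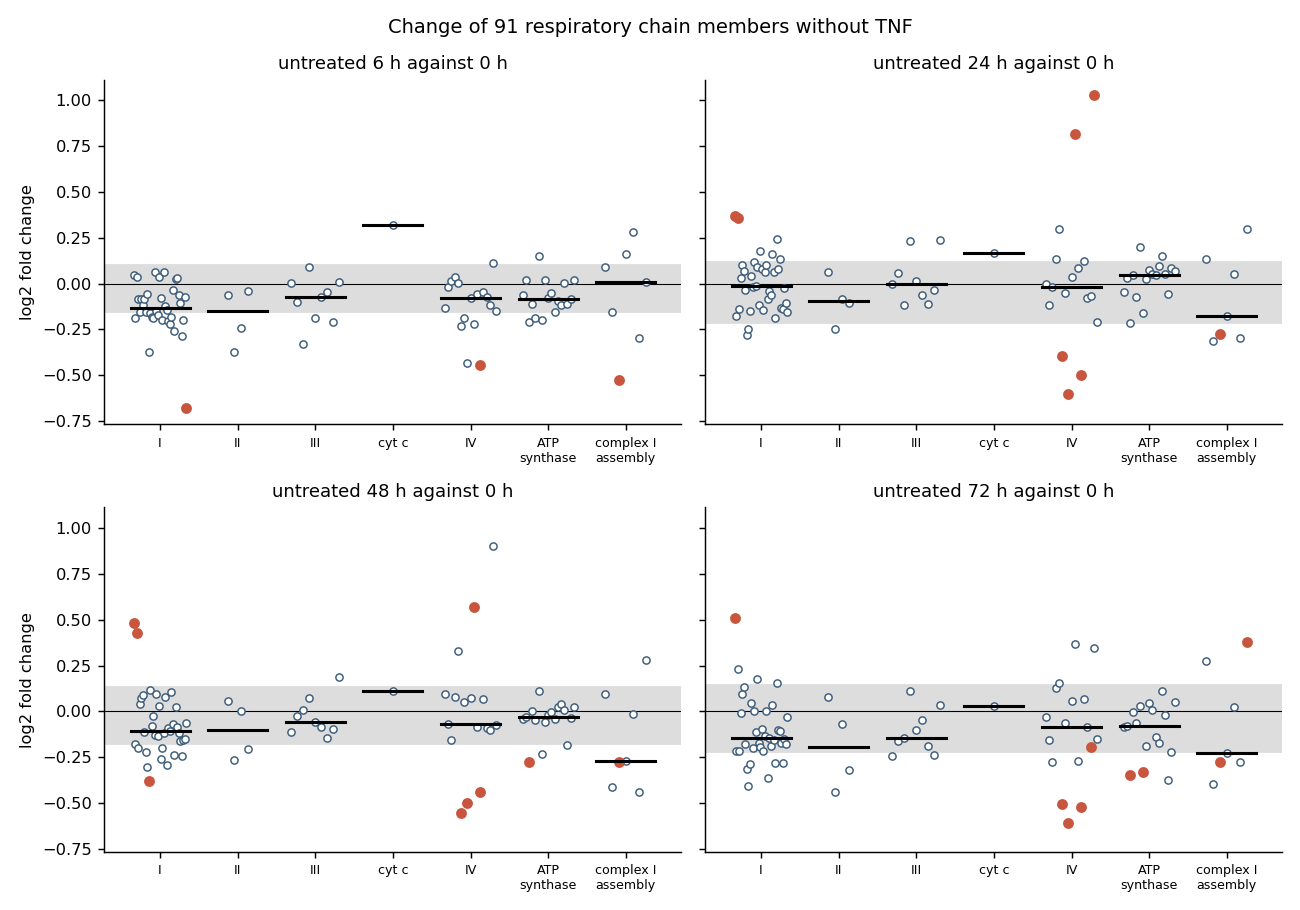
Each point is the log2 fold change of 1 of the 91 genes in untreated cells at 6, 24, 48 and 72 h over 0 h, sorted by complex; filled points are called (q under 0.05), black bars are medians and the grey band spans the interquartile range of all genes. The highest filled points are Cox8b (1.03) and Cox7a1 (0.82) at 24 h, and complexes II, III and cytochrome c hold none in this fit without a block.

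Of the 17 complex IV genes, 6 were called at some time, a share near the 31.8% of all genes, and several are isoforms. Cox7a2l fell at all 4 times. Its signals were 9.10, 9.39 and 9.04 at 72 h, against 9.70, 9.67 and 9.72 at 0 h, with no overlap, and the change was -0.52 ± 0.12 (q = 0.00228), a level 0.696 times that at 0 h. At 6, 24 and 48 h it was -0.44, -0.50 and -0.44, so that the lower level was in place by 6 h. A second probe set of this gene gave -0.54 at 72 h (q = 0.0363). The call at 6 h was lost without array 1 of 0 h (q = 0.0505), array 1 of 6 h (q = 0.0859) or array 3 of 6 h (q = 0.0640), and that at 48 h without array 3 of 48 h (q = 0.0712), while the calls at 24 and 72 h were kept in every such fit.

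Cox6a2, the heart and muscle isoform of its subunit, fell at 24, 48 and 72 h. Its signals were 8.43, 8.38 and 8.28 at 72 h, against 8.97, 8.73 and 8.91 at 0 h, and the change was -0.51 ± 0.12 (q = 0.00311) after -0.39 at 24 h and -0.56 at 48 h. The general isoform Cox6a1 had 0.30, 0.33 and 0.15 at those times and was not called without the block on array number. With the block it was called higher at 24 h (q = 0.0139) and at 48 h (q = 0.00948). The 24 h call of Cox6a2 was lost without array 1 of 0 h (q = 0.0738) and without arrays 2 or 3 of 24 h (q = 0.111 and 0.0715). Cox6b2 also fell at 24, 48 and 72 h, with 7.07, 7.46 and 7.06 at 72 h, against 7.71, 7.88 and 7.84 at 0 h, a change of -0.61 ± 0.17 (q = 0.00700), and its general counterpart Cox6b1 had -0.06 ± 0.14 at 72 h (q = 0.383). At 6 h Cox6b2 had -0.43, called with the block (q = 0.0136) and not without it (q = 0.115). The 48 h call of Cox6b2 (-0.50, q = 0.0357) was lost without arrays 2 or 3 of 0 h (q = 0.0783 and 0.0569) and without arrays 2 or 3 of 48 h (q = 0.0538 and 0.203).

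The muscle-type isoforms Cox7a1 and Cox8b moved the other way. Cox7a1 had 8.40, 9.11 and 8.81 at 24 h, against 7.97, 7.73 and 8.16 at 0 h, with no overlap, a rise of 0.82 ± 0.15 (q = 0.000497) or 1.76-fold, and it was still 0.57 ± 0.15 higher at 48 h (q = 0.00890). At 6 h it had -0.22 and at 72 h 0.37 (q = 0.0515), neither called, although the block on array number called it at 72 h (q = 0.0249), while Cox7a2, the general isoform, was not called at any time (0.08 at 24 h, -0.27 at 72 h). Both calls of Cox7a1 held when any single array was left out, but not without all arrays numbered 2 (0.54, q = 0.0531 at 24 h and 0.45, q = 0.105 at 48 h). Cox8b had 7.40, 9.44 and 7.85 at 24 h, against 7.42, 6.83 and 7.36 at 0 h, a rise of 1.03 ± 0.36 (q = 0.0372). The groups overlap, and array 2 of 24 h lies far above the rest. Without that array the change was 0.42 (q = 0.317), and the call was also lost without array 1 (q = 0.0529) or 2 (q = 0.0981) of 0 h. At 48 h it had 0.90 (q = 0.0760, and 0.0488 with the block). The general isoform Cox8a, in contrast, fell only slightly, with 12.64, 12.52 and 12.61 at 72 h, against 12.73, 12.82 and 12.82 at 0 h (-0.20 ± 0.08, q = 0.0489). That call was lost when any 1 of 5 of the 6 arrays was left out (q = 0.0702 to 0.165), all but array 1 of 0 h. Cox4i1, Cox4i2 and Cox8c were called at no time, with -0.03, -0.16 and -0.15 at 72 h.

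**Figure D4:**
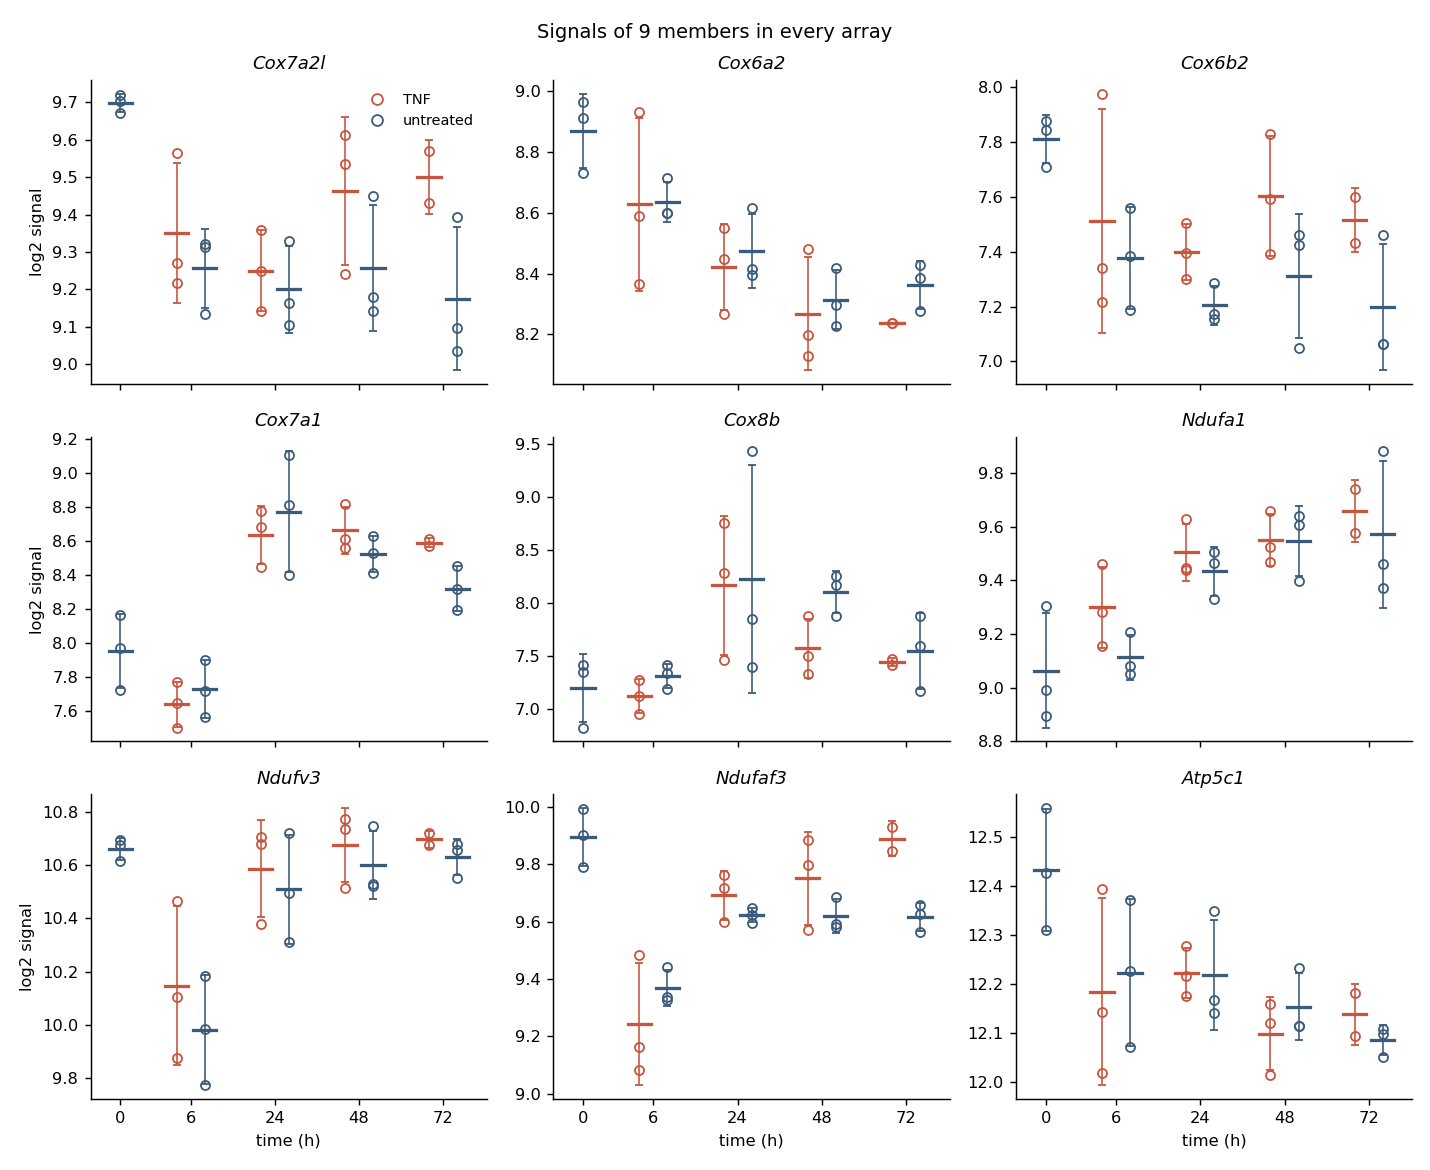
Log2 signals of 9 genes called in untreated cells at 1 or more times, in every array by time (h), with TNF-treated cells left of untreated cells at each time; circles are arrays, horizontal bars means and whiskers 1 SD. Cox7a2l lies between 9.67 and 9.72 at 0 h and at or below 9.45 in all later untreated arrays, and the 24 h values of Cox8b range from 7.40 to 9.44 among untreated arrays.

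Of the 36 complex I genes, 4 were called at some time. Ndufa1, a small accessory subunit in the membrane, rose at 24, 48 and 72 h. It had 9.88, 9.37 and 9.46 at 72 h, against 8.90, 8.99 and 9.30 at 0 h, a change of 0.51 ± 0.13 (q = 0.00408) or 1.42-fold, after 0.37 at 24 h and 0.48 at 48 h. The groups did not overlap, and the calls at 48 and 72 h were kept when any single array was left out, while that at 24 h was lost without arrays 1 or 2 of 0 h (q = 0.139 and 0.0756) or arrays 1 or 2 of 24 h (q = 0.0891 and 0.128). Ndufv3, a small subunit of the flavoprotein part that oxidises NADH, fell at 6 h alone. It had 9.77, 10.18 and 9.99 at 6 h, against 10.68, 10.61 and 10.69 at 0 h (-0.68 ± 0.14, q = 0.00311), and the call held in every fit without 1 array. At 24, 48 and 72 h its change was -0.15, -0.06 and -0.03. With TNF at 6 h it had 9.87, 10.47 and 10.10, all below the arrays of 0 h as well.

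Ndufa11 rose by 0.36 ± 0.14 at 24 h (q = 0.0477) and by 0.43 ± 0.14 at 48 h (q = 0.0258), with 11.73, 11.85 and 11.95 at 48 h, against 11.18, 11.62 and 11.45 at 0 h. Its call at 24 h was lost when any array but array 2 of 0 h was left out (q = 0.0502 to 0.215), and that at 48 h without array 1 of 0 h (q = 0.0995) or arrays 2 or 3 of 48 h (q = 0.0838 and 0.120). Ndufa6, an accessory subunit of the same complex, fell at 48 h, with 10.67, 10.60 and 10.57, against 10.98, 11.02 and 10.98 at 0 h (-0.38 ± 0.12, q = 0.0287), a call lost without array 2 of 0 h (q = 0.0595) or arrays 2 or 3 of 48 h (q = 0.0947 and 0.101). Its change was -0.37 at 6 h (q = 0.0579, and 0.0325 with the block on array number) and -0.29 at 72 h (q = 0.0570). The hypoxia-inducible relative of Ndufa4, Ndufa4l2, just missed the threshold at 72 h (-0.31 ± 0.13, q = 0.0501), while Ndufa4 had -0.18. Ndufa4l2 is among the dimmest 40% of probe sets, with Cox7b2 the only other such gene of the 91. The isoforms Cox4i2, Cox6b2, Cox8c and Cox8b lay not far above that limit, at percentiles 44.5, 45.6, 48.2 and 49.2 of all probe sets. The remaining complex I genes were not called at any time. With the block on array number, 9 complex I genes were called lower at 72 h: Ndufa4l2 (q = 0.0131), Ndufa6 (q = 0.0357), and Ndufa10, Ndufa5, Ndufb11, Ndufb8, Ndufs3, Ndufs7 and Ndufs8, with changes of -0.17 to -0.41 among these last 7 genes. This count is to be read beside the share of all genes called with the block at 72 h, given above for both directions together.

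Of the assembly factors, Ndufaf3 fell at all 4 times and most at 6 h. It had 9.34, 9.33 and 9.44 at 6 h, against 9.79, 9.99 and 9.90 at 0 h (-0.53 ± 0.10, q = 0.00140), and 9.66, 9.63 and 9.56 at 72 h (-0.28 ± 0.10, q = 0.0282). The call at 6 h was kept without any single array, while at 24, 48 and 72 h it was lost in 5, 4 and 4 of 6 such fits (q up to 0.128, 0.159 and 0.0921). TNF-treated cells had 9.08, 9.48 and 9.16 at 6 h. Their values of 9.93 and 9.85 at 72 h lay within the range of the arrays of 0 h. Ndufaf7, a methyltransferase that modifies a complex I subunit, was higher at 72 h with 8.86, 8.64 and 8.77, against 7.99, 8.77 and 8.37 at 0 h (0.38 ± 0.14, q = 0.0313). The groups overlap, and without array 1 of 0 h the change was 0.18 (q = 0.221). The call was also lost without arrays 1 or 3 of 72 h (q = 0.106 and 0.0784).

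In ATP synthase 2 of 17 genes were called. Atp5c1, the gamma subunit that forms the rotating shaft, had 12.11, 12.05 and 12.10 at 72 h, against 12.31, 12.56 and 12.43 at 0 h (-0.35 ± 0.10, q = 0.00927), and -0.28 at 48 h (q = 0.0465). Atp5g2, 1 of the 3 genes for the same membrane ring subunit, had 12.73, 12.73 and 12.72 at 72 h, against 12.98, 13.06 and 13.13 at 0 h (-0.33 ± 0.10, q = 0.0150). The calls at 72 h held without any single array, but at 48 h that of Atp5c1 was lost without arrays 2 or 3 of 0 h (q = 0.135 and 0.0597) and without arrays 2 or 3 of 48 h (q = 0.155 and 0.151). All 3 probe sets of Atp5g2 gave -0.33 to -0.35, and at 48 h the gene had -0.23 (q = 0.104, and 0.0279 with the block on array number). The other genes of the ring subunit, Atp5g1 and Atp5g3, had 0.03 and -0.19 at 72 h and were not called. The difference between these genes was not tested. Atp5mpl, a small membrane protein of the complex, had -0.37 at 72 h with no overlap (q = 0.0712, and 0.0400 with the block on array number).

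Complexes II and III and cytochrome c had no called gene at any time without the block on array number. Sdhb, the iron-sulfur subunit of complex II, had 11.15, 11.04 and 11.09 at 72 h, against 11.29, 11.92 and 11.40 at 0 h, a change of -0.44 ± 0.19 (q = 0.0568). The arrays did not overlap, but array 2 of 0 h was far above the others. Uqcrh, the hinge protein of complex III, had -0.24 ± 0.14 at 72 h (q = 0.136). With the block both were called lower at 72 h, Sdhb with q = 0.0136 and Uqcrh with q = 0.0330. Cytochrome c had 0.32 ± 0.17 at 6 h (q = 0.266) and 0.03 at 72 h.

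Many of these genes are known to have processed pseudogene copies, and 18 of the 91 are measured by several probe sets. The probe sets of a gene differed by a median of 0.04 in the TNF effect at 6 h, with a largest range of 0.18 for Cycs, and no gene had differing calls in a TNF effect, while at 72 h against 0 h 1 gene had. The gene is Ndufb11. A further 6 probe sets carry several symbols, for Cox7c, Ndufb4 or the pseudogene Ndufs5-ps among others, and are not counted among the 91 genes. None of these was called in a TNF effect, and both probe sets of Ndufb4 were lower at 72 h than at 0 h (-0.37 and -0.36, q = 0.0270 and 0.0187).

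Other mitochondrial genes were described from lists. Of 77 mitochondrial ribosomal proteins, 0 were called in the TNF effect at any single time, with medians of 0.14, 0.00, 0.06 and 0.16 at 6, 24, 48 and 72 h. Each of these lay above the median of the respiratory chain genes at that time, and the difference was not tested. In the mean TNF effect 2 of the 77 were called higher and 0 lower, beside 9.72% of all genes called in either direction. In untreated cells at 72 h, 1 of them was higher (Mrps6, 1.18) and 10 lower than at 0 h, among them Mrps10 (-0.62) and Mrpl58 (-0.59), where 14.6% of all genes were higher and 11.2% lower, the shares against which the counts of the following lists at 72 h are also to be read. Among 41 assembly factors outside the rule, 3 rose and 5 fell at 72 h. Higd1a, a hypoxia-induced protein at complex IV, rose by 1.43, and Cox10, needed for the heme of complex IV, fell by 0.72. Of 26 genes of protein import 4 fell (Timm50 by 0.78), and of 18 genes of the TCA cycle 2 fell, Dlst by 0.39 and Cs by 0.31. None of the genes of these 3 lists was called in a TNF effect at any single time.

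Among 21 regulators of mitochondrial biogenesis, 0 were called in any single-time TNF effect. Ppargc1a, which encodes PGC-1α, had -0.27, -0.17, -0.04 and -0.25 at 6, 24, 48 and 72 h, Ppargc1b -0.03, 0.04, 0.00 and 0.00, Nrf1 0.05, -0.09, -0.03 and -0.02, Gabpa -0.02, -0.06, -0.08 and -0.17, and Tfam, the packaging factor of mitochondrial DNA, 0.41, -0.00, 0.26 and 0.38, all with q of 0.618 or more. In untreated cells at 72 h Polg, the mitochondrial DNA polymerase, was lower than at 0 h (-1.01 ± 0.10), as was Esrra, a nuclear receptor that works with PGC-1 (-0.31 ± 0.09). Of 17 carriers and antioxidant genes 1 was called with TNF, at 24 h: Gpx4, a selenoprotein that reduces lipid peroxides, had 12.69, 12.77 and 12.68 with TNF, against 11.95, 12.16 and 11.92 without (0.70, q = 0.00418). Sod2, the mitochondrial superoxide dismutase and a known NF-κB target, had 0.16 ± 0.12 at 6 h and 0.02 ± 0.13 at 72 h and was not called. Of 15 HIF target genes, Slc2a1, a glucose transporter, was lower with TNF at 48 h (-1.05, q = 0.00543) and 72 h (-0.91, q = 0.0429). At 72 h without TNF 6 of these 15 genes had risen and 1 had fallen relative to 0 h.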

How the data were processed

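The study measured RNA with Affymetrix MoGene 1.0 ST arrays. The deposited table holds log2 signals that the authors made by robust multi-array averaging (RMA) with the oligo package in R 3.3.1, and it was used as deposited. For oligo and the probe annotation no version was stated in the labels or the methods. Since RMA sets all arrays to one distribution, only changes relative to the other genes can be seen, and neither a common shift of all RNA nor a comparison of levels between different probe sets is possible.

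Groups and array numbers came from the sample labels. Of 35556 probe sets, 21789 carried a single symbol, 1621 several and 12146 none. Means of the 9 groups were fitted to all 26 arrays with limma 3.58.1 in R 4.3.3, as moderated tests of TNF-treated against untreated cells at each time, of their mean over the 4 times, of the differences to 6 h, and of untreated cells at each time against 0 h. q-values were computed over all 35556 probe sets, with 0.05 as the threshold. On simulated arrays of the untreated 72 h comparison, 0% of changes of 0.2, 24% of 0.5 and 68% of 1 log2 unit were called. There only 50 random probe sets were changed by each size, while 25.8% of all genes were called in the real comparison. Because q-values depend on the share of changed genes, this recovery does not describe the real comparison. No 2 arrays were identical, and they correlated with each other at 0.947 to 0.996.

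Genes are named where they were called in a TNF effect, lead their complex in level, in separated change at 72 h or in mean TNF effect, or belong to an isoform set. Every other gene called in untreated cells is named too, as a choice made after its values were seen. The genes, gene lists and tests were chosen with earlier results of these data known. Alternatives were other adjustments and thresholds, cyclic loess, array weights, an intensity trend with a robust prior (statmod 1.5.0), a filter on dim probe sets, averaging of probe sets, fits on the compared arrays alone, the array number as a block, and leaving out each array. Leaving out all arrays numbered 2, removing the gene length trend and renumbering the second TNF array of 72 h were added after seeing the data. Over all probe sets, same-numbered arrays were taken to deviate together where every pair correlated at over 0.1. This held for TNF against untreated cells at 6 h and for untreated cells at 6, 48 and 72 h against 0 h. The correlations were 0.50 to 0.68 at 6 h, 0.30 to 0.56 at 48 h and 0.14 to 0.18 at 72 h against 0 h. For TNF at 6 h they were 0.46 to 0.67. Over the respiratory chain genes alone, every TNF pair was over 0.1 at each time. The values were 0.62 to 0.75 at 6 h, 0.21 to 0.81 at 24 h, 0.28 to 0.78 at 48 h, and 0.40 and 0.12 at 72 h. In untreated cells against 0 h these genes gave 0.55 to 0.63 at 6 h and 0.14 to 0.45 at 48 h. They gave -0.04 to 0.06 at 24 h and -0.02 to 0.11 at 72 h.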

Additional observations from a re-analysis of the deposited data

How the results depend on the processing

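No change called in untreated cells turned its sign under any alternative run, while medians near 0 did, as their ranges show. Counts of the 91 genes called moved as follows. In this section, a count without a share of all genes beside it shows only how far the number moved. With array weights, 1 gene was called in the TNF effect at 6 h, 7 at 72 h (beside 15.8% of all genes), 5 in the mean TNF effect and 1 in the difference between 72 and 6 h, and 3 each in untreated cells at 24 and 48 h. Fitted on the compared arrays alone, TNF gave 1 at 72 h, and untreated cells gave 0, 1, 0 and 3 at 6, 24, 48 and 72 h. An intensity trend gave 1 in the mean TNF effect. At q under 0.01 untreated cells gave 2, 3 and 5 at 24, 48 and 72 h, and Benjamini-Hochberg adjustment gave 4 at 24 h. At 72 h, cyclic loess gave 16 and a filter on dim probe sets 17. With the gene length trend removed 5 were called at 48 h, and without the arrays numbered 2 there were 6, 3 and 5 at 6, 24 and 48 h.

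With the array number as a block, 2 genes were called in the mean TNF effect, Cox6b2 (q = 0.0123) and Cox7a2l (q = 0.0269), beside 17.4% of all genes, and untreated cells gave 5 at 6 h and 22 at 72 h. The block gave 0 calls in each single-time TNF effect, and 12 calls each in untreated cells at 24 and 48 h. With the second TNF array of 72 h numbered 3, the block gave 1 call and a median of 0.16 for TNF at 72 h, 3 in the mean TNF effect, and 5, 13 and 25 in untreated cells at 6, 24 and 72 h.

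Leaving out single arrays gave 0 calls in each single-time TNF effect and its differences, 0 to 2 in the mean TNF effect, and 2 to 6, 3 to 9, 3 to 13 and 6 to 15 in untreated cells at 6, 24, 48 and 72 h. The median TNF effect ran from -0.08 to 0.16 at 6 h, -0.06 to 0.01 at 24 h, -0.0428 to 0.0299 at 48 h and 0.0626 to 0.13 at 72 h, and for the mean from -0.01 to 0.05. Medians of the differences to 6 h ran from -0.19 to 0.04 at 24 h, -0.15 to 0.08 at 48 h and -0.07 to 0.18 at 72 h, and those of untreated cells from -0.19 to 0.01, -0.09 to 0.12, -0.14 to 0.05 and -0.24 to -0.00. The cause of these shifts was not tested.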
